A study of Drosophila melanogaster with 2 samples.

Results

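The proteasome subunit genes of Drosophila melanogaster were examined for promoter peaks in a chromatin immunoprecipitation sequencing (ChIP-seq) experiment on Slbo, a leucine zipper transcription factor of the C/EBP family. Members were the protein-coding genes whose symbol begins with Prosalpha or Prosbeta, or with Rpn or Rpt and a digit, 48 of 13945 protein-coding genes on the 6 chromosome arms of the Ensembl annotation. A gene was said to have a promoter peak when a peak summit lay within 1 kb of one of its annotated start sites. The 2 samples were biological replicates of a single group, whole embryos of the strain slbo-GFP collected between 8 and 24 h, which carry an insertion that expresses Slbo fused to eGFP. The sample descriptions state that an antibody against GFP was used for the precipitation, whereas the antibody label reads slbo. Neither the promoter that drives the fusion nor the presence of untagged Slbo is stated. Whole embryos mix all tissues, so a peak cannot be assigned to a cell type. No sample without the transgene was analysed here, so no background was measured in the same way, and no comparison between groups could be tested. The peak lists hold no read counts, so the depth of each sample is unknown. All shares below are complete counts over fixed gene lists, given as a description.

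The proteasome is the large protease that degrades proteins tagged with ubiquitin. Its core particle stacks rings of alpha subunits, which gate the entry, around rings of beta subunits, which hold the catalytic sites. The regulatory particle has a base of Rpt ATPases, which unfold the substrate, with the scaffold subunits Rpn1 and Rpn2, and a lid of other Rpn subunits. Ubiquitin receptors such as Rpn10 and Rpn13 bind the tagged substrate. In fly, several subunits also have a second gene, marked by R or T after the subunit number, and those such as Prosalpha3T, Prosalpha4T1, Prosalpha4T2 and Prosalpha6T are known from the male germ line. Of the 48 members, 32 were core subunit genes, named by the subunit and its number alone, and 16 were such paralogues.

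Promoter peaks were found at the core subunit genes and at none of the paralogues. In the series-level thresholded list of 8786 peaks, which combines both replicates, 21 of the 32 core genes (65.6%) and 0 of the 16 paralogues had one, 21 of 48 members (43.8%), where 36.4% of all protein-coding genes did. In the list of replicate 1 alone 23 core genes had a promoter peak (all coding genes 34.1%), and in that of replicate 2 alone 12 had one (all coding genes 26.7%). The share of core genes was 54.7% ± 24.3 (SD, n = 2 replicates), against 30.4% ± 5.28 for all coding genes. The same 12 genes were found in both replicates and in the series-level list, 37.5% of the core genes, where 25.4% of all coding genes were in both replicates. The conservative series-level list held 17 of the core genes (34.8% of all coding genes). No paralogue had a promoter peak in any of these lists, so the counts of core genes are also those of all 48 members. Of the 48, 47.9% had one in replicate 1 (all coding genes 34.1%) and 35.4% in the conservative list (all coding genes 34.8%). In replicate 2 alone, and in both replicates, 12 of the 48 had one. That share was below the 26.7% and 25.4% of all coding genes, so there only the core subset exceeded them.

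**Figure D1:**
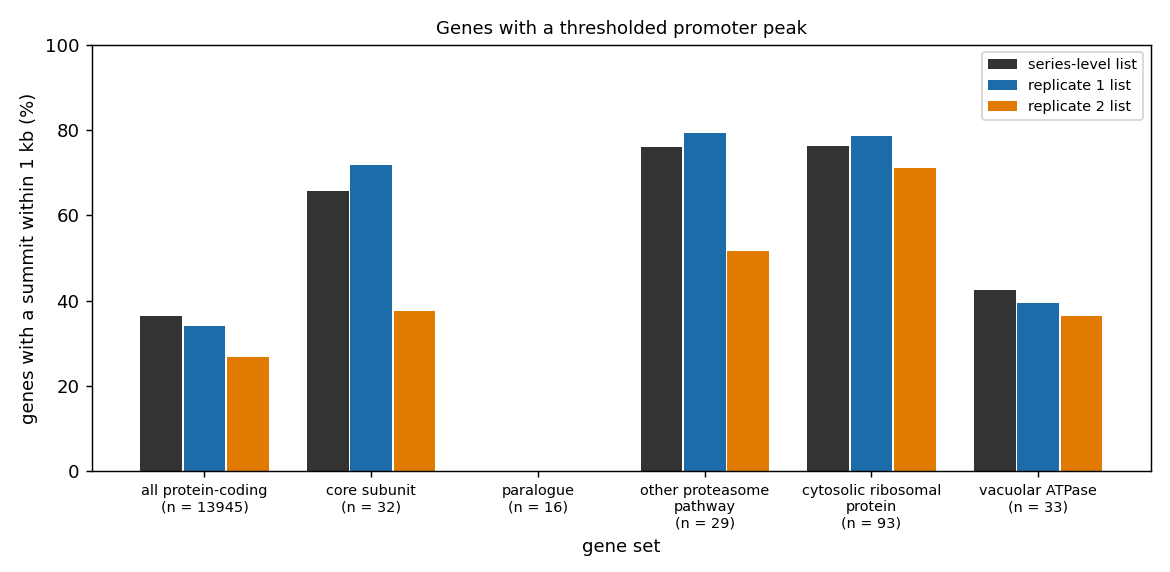
Bars give the share of genes (%, vertical axis from 0) with a promoter peak as defined above, for 6 gene sets (horizontal axis) in the series-level list and in each replicate's own list. Core subunit genes stand at 65.6%, 71.9% and 37.5% in these lists, all coding genes at 36.4%, 34.1% and 26.7%, and the paralogues at 0 in each.

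Sequences around the strongest summit of 7 core promoters are printed below to show what lay under the peaks, from the RefSeq copy of the dm6 genome. They are Rpn3 and Rpt5, which were among the strongest, 4 promoters with a motif match in the printed stretch, and Rpn2, which had none. Since some were picked for a match, and other stretches without a match are not printed, the share with a match among them is no result. The stretch of Rpn3 does not include its summit, which lay in the 5′ UTR. Each stretch covers up to 75 bp on either side of the summit, without bases that belong to an annotated exon, and reads 5′ to 3′ on the strand of the member. Capitals mark TATCGATA, the core of the DNA replication-related element (DRE), or TTRYRYAA, the C/EBP consensus, with R for either purine and Y for either pyrimidine.
Rpn3 (chr2L:19051741-19051789, plus strand, upstream of the start site): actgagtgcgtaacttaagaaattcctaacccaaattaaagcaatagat
Rpt5 (chr3R:23752835-23752875, plus strand): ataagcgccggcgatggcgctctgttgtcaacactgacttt
Rpn5 (chr3R:5789075-5789216, plus strand, C/EBP): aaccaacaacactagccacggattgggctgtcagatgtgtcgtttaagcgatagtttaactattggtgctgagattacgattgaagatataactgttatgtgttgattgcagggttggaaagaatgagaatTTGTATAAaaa
Prosbeta2 (chr3L:14999676-14999826, plus strand, DRE core, then C/EBP): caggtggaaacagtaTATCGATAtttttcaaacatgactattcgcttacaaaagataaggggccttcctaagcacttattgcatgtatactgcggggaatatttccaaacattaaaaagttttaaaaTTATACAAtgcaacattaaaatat
Rpn11 (chr2L:5059819-5059969, minus strand, C/EBP): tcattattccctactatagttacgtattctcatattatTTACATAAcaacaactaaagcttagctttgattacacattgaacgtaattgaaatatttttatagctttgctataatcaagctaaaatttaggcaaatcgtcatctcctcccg
Rpt3 (chrX:11124727-11124869, plus strand, DRE core): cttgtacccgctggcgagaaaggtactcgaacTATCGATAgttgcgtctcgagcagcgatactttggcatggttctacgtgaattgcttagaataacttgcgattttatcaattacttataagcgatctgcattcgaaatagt
Rpn2 (chr3R:29153426-29153523, plus strand): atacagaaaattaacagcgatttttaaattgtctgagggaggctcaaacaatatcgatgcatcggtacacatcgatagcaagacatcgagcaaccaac

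The lid held the strongest member peaks. All but Rpn9 of its 8 genes had a series-level promoter peak (87.5%), where 36.4% of all coding genes did. In replicate 2 only 4 of the 8 lid genes had one, where 26.7% of all coding genes did. Signals are the authors' peak values and were compared in size only within a list. Rpn6 (FBgn0028689; peak 2R:14752269-14752465), a subunit known to hold the lid and the core particle together, had the highest signal of any member, 409 at series level (rank 895), 250 in replicate 1 (rank 827 of 7151) and 154 in replicate 2 (rank 1100 of 5445). Its summit lay 107 bp upstream of a start site, in an intron of the annotation. Rpn3 (FBgn0261396; peak 2L:19051715-19051891) was close behind with 408 at series level (rank 901), 247 in replicate 1 and 153 in replicate 2, and its summit lay 26 bp inside the gene, in the 5′ UTR. These were the only 2 members among the 1000 strongest series-level peaks.

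The other lid genes had lower signals, and 4 of them had no peak in replicate 2. Rpn5 (FBgn0028690; peak 3R:5789052-5789217) had signals of 245 at series level (rank 1962), 139 in replicate 1 and 105 in replicate 2. Rpn11 (FBgn0028694; peak 2L:5059729-5060058), the deubiquitinase that removes ubiquitin from the substrate, had 155 (rank 3347), 98.3 and 58.2. Both had a second series-level summit within 1 kb, of signal 161 at Rpn5 and 103 at Rpn11. Rpn8, the partner of Rpn11 (99.1 at series level), Rpn12 (84.8) and Rpn7 (67.8) had a peak in replicate 1, of 72.1, 54.9 and 44.4, and none in replicate 2. The series-level summit of Rpn8 lay 226 bp upstream of a start site inside the gene. With the outermost start site only, or in the conservative list, Rpn8 had no promoter peak. Rpn9 had a peak of 54.3 in replicate 1 and none at series level or in replicate 2.

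In the base, both scaffold genes and 4 of the 6 ATPase genes (66.7%) had a series-level promoter peak, where 36.4% of all coding genes did. In replicate 2 only 1 of the 6 ATPase genes had one (16.7%), a lower share than the 26.7% of all coding genes. Rpt5 (FBgn0028684; peak 3R:23752770-23752923) had the highest base signal, 296 at series level (rank 1516), 191 in replicate 1 and 105 in replicate 2. The scaffold gene Rpn2 (FBgn0028692) had 116, 60.2 and 53.9, with its summit 23 bp upstream of the start site. Rpt5 and Rpn2 were the only base genes with a peak in both replicates. Rpt1 (100 at series level, 67.6 in replicate 1), Rpt3 (93.3 and 56.9) and the scaffold gene Rpn1 (70.9 and 43.9) had none in replicate 2. Of the members' strongest series-level peaks, that of Rpt6 was the weakest, 59.9 (rank 8397 of 8786), and the gene had a peak in neither replicate's own list. Only the second peaks of Prosalpha3 (58.2) and Prosalpha4 (55.9) were weaker. Rpt2 and Rpt4 had no thresholded promoter peak in any list.

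The core particle had promoter peaks at 4 of 7 alpha genes (57.1%) and 3 of 7 beta genes (42.9%) at series level, where 36.4% of all coding genes had one. Among alpha genes, Prosalpha3 (FBgn0261394; peak 2R:20994772-20994912) was highest, with 291 at series level (rank 1550), 198 in replicate 1 and 95.9 in replicate 2. Prosalpha7 (FBgn0023175; peak 2R:9847695-9848024) followed with 206 (rank 2411), 146 and 63, and Prosalpha2 (FBgn0086134) with 101, 47.5 and 63.2. These 3 had a peak in both replicates. Prosalpha4 had 85.0 at series level and 64.4 in replicate 1 only, while Prosalpha5 (54.8) and Prosalpha6 (37.4) were in the list of replicate 1 alone. Prosalpha1 had no peak in any list, not even a ranked one below the threshold.

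All 3 beta genes with peaks encode catalytic subunits of the proteasome. Prosbeta1 (FBgn0010590; caspase-like activity; peak 2R:16014804-16014923) had signals of 226 at series level (rank 2161), 153 in replicate 1 and 71.1 in replicate 2. For Prosbeta2 (FBgn0023174; trypsin-like activity; peak 3L:14999586-14999915) the values were 183 (rank 2777), 117 and 81.2. Prosbeta5 (FBgn0029134; chymotrypsin-like activity) had 113 at series level and 69.3 in replicate 1, and its strongest ranked peak in replicate 2 (43.7, score 734) fell under the threshold. The non-catalytic Prosbeta3, Prosbeta4, Prosbeta6 and Prosbeta7 had no thresholded promoter peak in any list. With 3 and 4 genes in these sets, the contrast is a description and was not tested. The summits of Prosbeta1, Prosbeta2 and Prosbeta5 lay nearer to another gene, so with each summit counted only for the nearest gene no beta gene had a peak. Of the ubiquitin receptors, Rpn13 (FBgn0033886; peak 2R:13960276-13960605) had 258 at series level (rank 1827), 159 in replicate 1 and 103 in replicate 2, and Rpn10 had none.

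**Figure D2:**
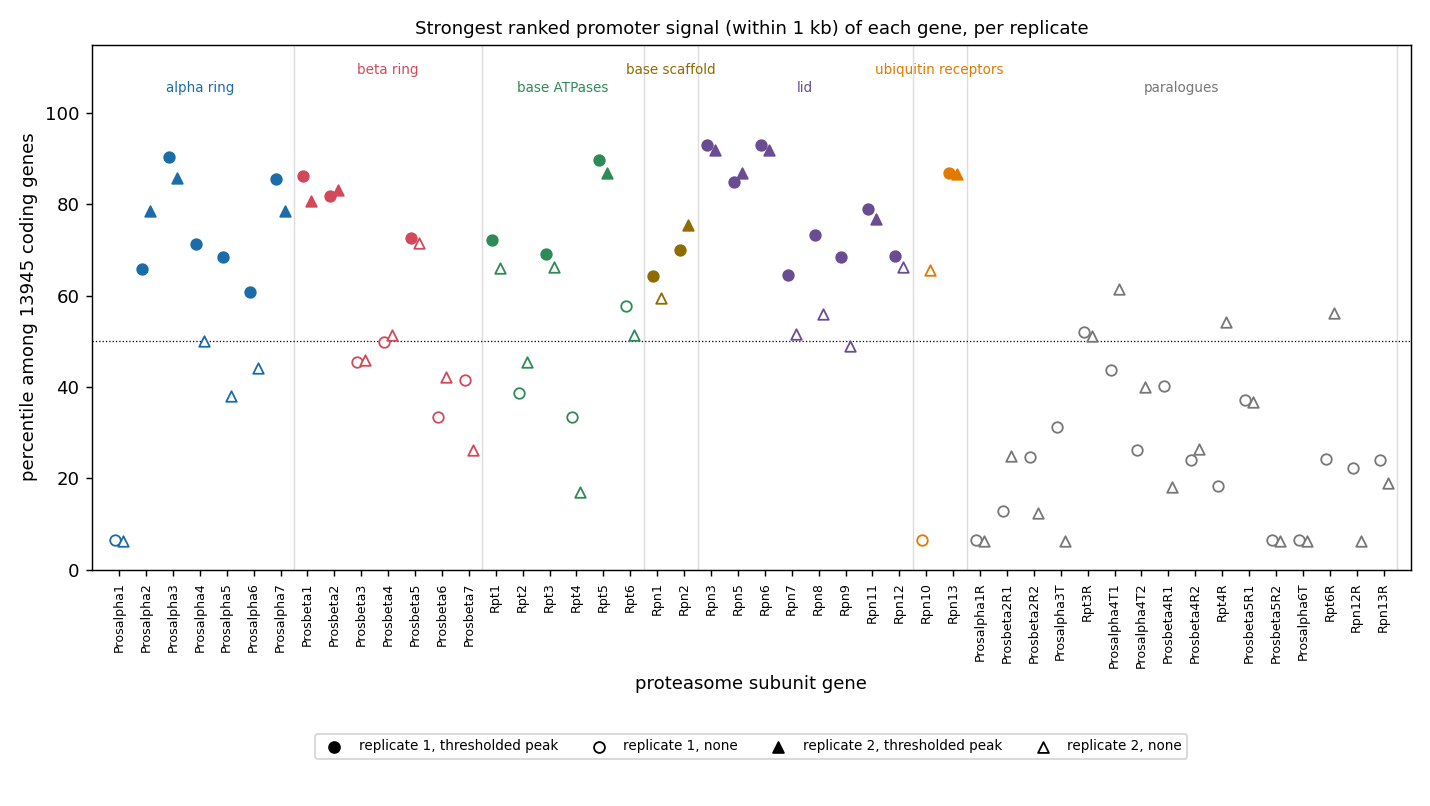
Each point places the strongest ranked signal within 1 kb of a member's start sites (horizontal axis, by role) as a percentile among 13945 coding genes (vertical axis) in replicate 1 (circles) or replicate 2 (triangles). Filled points have a thresholded peak in that replicate and open points have none. Genes without a ranked peak sit at 6.43 and 6.19, and the paralogues reach at most 52.1 and 61.4.

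At series level and in each replicate the peaks at core promoters had a lower median signal than those of all genes, while in the conservative list the medians were closer. The strongest peaks of the 21 genes had a median signal of 116, and those of all 5080 coding genes with a promoter peak had one of 183. The median rank was 4597 of 8786, 10 of the 21 lay in the upper part of the list and 11 in the lower. In replicate 1 the median signal was 69.3, against 122 for all coding genes with a peak, and in replicate 2 it was 88.6 against 101. In the conservative list the 17 core genes had a median signal of 183 and a median rank of 2775 of 8282, and all coding genes with a peak a median signal of 194. That list lacks Prosalpha4, Rpn7, Rpn8 and Rpt6, which had series-level signals from 59.9 to 99.1. In replicate 1 the 12 genes found in both replicates had signals from 47.5 to 250 (median 150), and the 11 found in replicate 1 only had 37.4 to 72.1 (median 54.9). The ranges overlap only through Prosalpha2 and Rpn2. Across the 30 core genes with a ranked peak in both replicates, Spearman's rho between the replicates' strongest signals was 0.884 and Pearson's r of the log2 signals 0.912. This is a correlation across genes measured in the same 2 libraries, not across independent replicates, so it carries no p.

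Ranked peaks, thresholded or not, had a lower median percentile at the paralogues than at the core genes, with overlapping ranges. At series level 87.2% of all coding genes had a ranked peak of any score within 1 kb, as did 30 core genes and 12 paralogues. Taken as a percentile among all coding genes, with genes lacking a peak tied at the bottom, the median was 68.9 for core genes in replicate 1 and 65.9 in replicate 2. For the paralogues it was 24.2 and 22.0. Their strongest ranked peaks at series level had scores from 38 to 561, against a lowest thresholded score of 830, and the highest score was that of Rpt3R (signal 49.5). The highest paralogue signal was 55.7 at Prosalpha4T1, above the 54.6 of the core genes Prosalpha6 and Prosbeta4. Prosalpha1R, Prosbeta5R2, Prosalpha6T and Rpn12R had no ranked peak at series level. The nearest thresholded summit was 9646 bp away in the median for paralogues (2083 bp for Prosbeta2R2 to 31023 bp for Rpt4R), and 157 bp for core genes.

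Of the 11 core genes without a series-level promoter peak, 9 had a ranked peak at series level. Its signal was 59.9 at Rpn9 (score 322), 59.1 at Prosalpha5 (78), 54.6 at Prosalpha6 (680) and 54.6 at Prosbeta4 (473). It was 49.5 at Rpt2 (85), 47.7 at Prosbeta3 (526), 36.9 at Prosbeta7 (398), 35.3 at Prosbeta6 (82) and 32.7 at Rpt4 (137). The signal of Rpn9 was, after rounding, that of Rpt6, the weakest member with a thresholded peak, and the other 8 were lower. Rpn10 had a ranked peak in replicate 2 only (35.2, score 73) and Prosalpha1 in none.

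Values near the limits of the rule were few. Just inside the score threshold were Rpt6 (904) and Rpn12 (933), while the other 19 strongest member peaks had the maximum of 1000. Just outside, at series level, were Prosalpha6 (score 680, signal 54.6), Rpt3R (561) and Prosbeta3 (526). The farthest strongest summit inside the distance limit was that of Rpn5, 352 bp upstream of its start site. The nearest outside belonged to Prosbeta6, whose closest summit lay 1121 bp away. That peak had a signal of 472 (rank 705), higher than any member's, and lay 50 bp from the start site of CG4098.

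Member summits lay mostly just upstream of the start site. Of the strongest peaks of the 21 genes, 19 had the summit upstream (90.5%) and 2 (Rpn3 and Rpt6) downstream, and 11 were within 100 bp (52.4%). Among all coding genes with a promoter peak, 81.9% had the strongest summit upstream and 36.4% had it within 100 bp. The median distance was 91.0 bp, and that of all coding genes with a promoter peak 152 bp. For 13 genes the summit lay between genes, for 5 in an intron, for 2 in a 5′ UTR, and for Prosalpha2 in an annotated coding exon. The 21 genes had 25 promoter peaks in all, since Prosalpha3, Prosalpha4, Rpn5 and Rpn11 had 2 each.

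**Figure D3:**
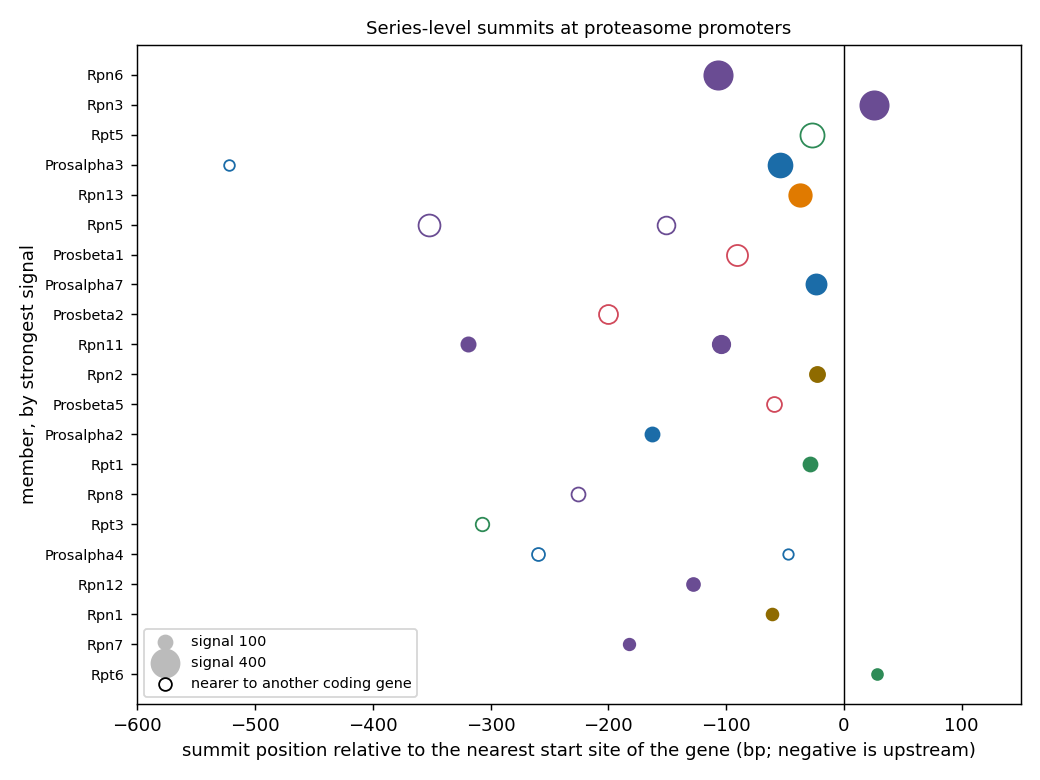
Each circle is a series-level summit, placed by its distance from the nearest start site of the member (bp, horizontal axis, negative is upstream), with members ordered by strongest signal and area proportional to signal. Open circles lie nearer to the start site of another coding gene, as at Rpt5, Rpn5, Prosbeta1, Prosbeta2, Prosbeta5, Rpn8, Rpt3 and Prosalpha4, and at the weaker summit of Prosalpha3.

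Many of these promoters are shared with a neighbouring gene, so that a summit cannot be given to the proteasome gene alone. Of the 21 strongest summits, 16 were also within 1 kb of a start site of another coding gene, and 8 lay nearer to that gene. Such neighbours are common among all genes with a peak. Of the 5080 coding genes with a promoter peak, 3204 had another coding gene's start site within 1 kb of their own, as had 15 of the 21 core genes. The summit at Rpt5 was 27 bp from its start site and 15 bp from that of RanBP3. At Prosbeta1 the distances were 91 bp and, to Rrp42, 30 bp, at Prosbeta2 they were 200 bp and, to mRpL39, 85 bp, and at Prosbeta5 they were 59 bp and, to dgo, 35 bp. The summit of Rpn5 was 352 bp from its own start site and 67 bp from that of Hat1, and that of Rpt3 was 307 bp from its own and 68 bp from that of CG11122. At Prosalpha4 and Rpn8 the nearer genes were kat80 (93 bp) and Slik (99 bp). With each summit counted only for the nearest coding gene, 13 of the 48 members had a promoter peak, all of them core genes. Of all coding genes 27.5% had one under that rule.

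Across the genome, genes with a close neighbour had a promoter peak more often, which the rule itself partly fixes, since a summit within 1 kb of both start sites counts for both genes. Among coding genes with another coding gene's start site within 1 kb, 53.5% had a promoter peak, and among the others 23.6%. Of the core genes, 22 had such a neighbour and 15 of them a peak (68.2%), and 6 of the 10 without a neighbour had one (60.0%). The 6 were Prosalpha2, Rpt1, Rpt6, Rpn1, Rpn11 and Rpn12. Of the 16 paralogues 4 had a neighbour. The part of gene spacing in the difference between core genes and paralogues was not tested.

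The DRE core was in a larger share of core promoters than of all coding promoters. DRE is the site of DREF and BEAF-32, factors of housekeeping and proliferation promoters. The 5 motifs named here were searched on both strands from 250 bp before to 50 bp after the outermost start site of each gene. This window need not hold the strongest peak, and at Rpn5, Rpn6 and Rpn8 it did not. The strongest summits of Rpt3 and Prosalpha4 also lay outside it, 307 and 260 bp upstream of the start site. TATCGATA was in 12 of 32 core promoters (37.5%), 0 of 16 paralogue promoters and 9.36% of all 13945 coding promoters. It was in 8 of the 21 core promoters with a peak (38.1%) and in 4 of the 11 without (36.4%). The 8 were Prosalpha3, Prosbeta1, Prosbeta2, Rpn3, Rpn7, Rpn12, Rpn13 and Rpt5, and the 4 Prosalpha5, Prosalpha6, Prosbeta6 and Rpn9. The match began upstream of the start site in 10 of the 12 and within 50 bp of it in 7.

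**Figure D4:**
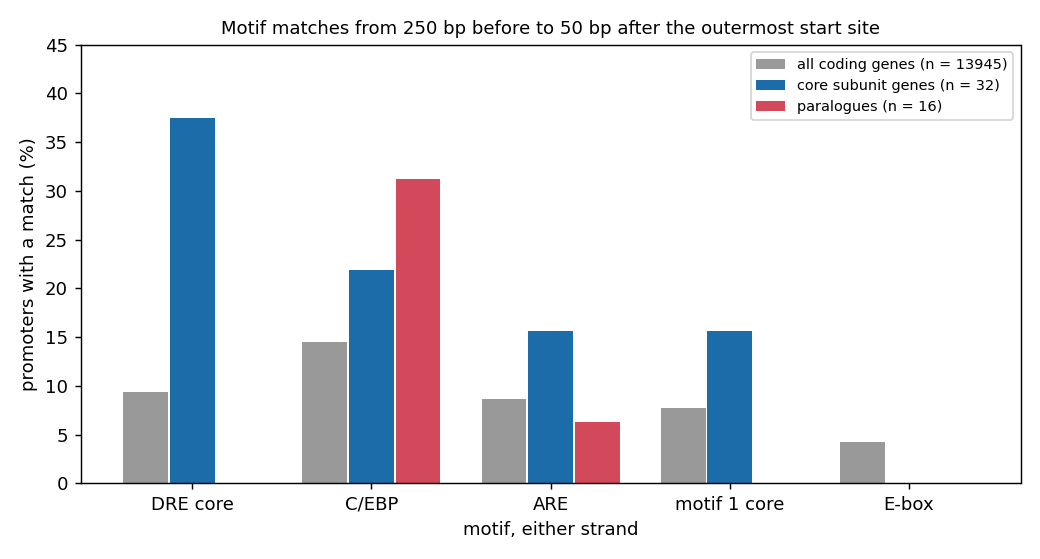
Bars give the share of promoters (%, vertical axis from 0) with a match to each of 5 motifs (horizontal axis), for all coding genes, core subunit genes and paralogues. The DRE core stands at 37.5% in core promoters, 9.36% in all and 0 in paralogues, and the C/EBP consensus at 21.9%, 14.5% and 31.2%.

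The C/EBP consensus TTRYRYAA, the site of the family to which Slbo belongs, was in 7 core promoters (21.9%), 5 paralogue promoters (31.2%) and 14.5% of all. It was in 4 of 21 core promoters with a peak and in 3 of 11 without. The sequence TGACNNNGC, the antioxidant response element (ARE) bound by CncC, an activator of proteasome genes under stress, was in 5 core promoters (15.6%), 1 paralogue promoter and 8.63% of all. GGTCACAC, the core of the promoter motif bound by M1BP, was also in 5 core promoters and in 7.70% of all, and in 2 core promoters it overlapped the ARE match. CACGTG, the E-box, was in no member promoter and in 4.20% of all. No match says only that these letters are not in this window.

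Motif matches near the summits themselves depended on the window. Within 50 bp of the strongest summit TATCGATA was at 4 of 21 members (19.0%), Prosalpha3, Prosbeta1, Rpt3 and Rpt5, and at 4.27% of the 4679 summits near coding start sites. At Rpt5 it was 16 bp from the summit, mostly in exon sequence that is not printed above. Its last letters, ata, open the printed stretch without capitals. The C/EBP consensus was at 2 members (9.52%), Rpn11 and Rpn13, 33 and 36 bp from the summit, and at 4.62% of those summits. The ARE was at Rpt6, 2 bp from the summit, and at no other member (4.76%), and it was at 2.91% of those summits. With 25 bp instead of 50 bp the DRE core was at 1 member and the C/EBP consensus at none, and with 100 bp or the whole peak they were at 7 and 4. For these other windows the share over all promoter summits was not computed, so the counts have no background beside them. In the sequences printed above the DRE core of Prosbeta2 lies outside the 50 bp window, as does the C/EBP match of Rpn5.

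Other genes of the ubiquitin and proteasome pathway, a list of 29, had promoter peaks in 22 cases (75.9%, all coding genes 36.4%). In replicate 1 there were 23 (79.3%, all coding genes 34.1%) and in replicate 2 there were 15 (51.7%, all coding genes 26.7%). Within 500 bp the series-level count was 19, and with the nearest gene only it was 18. The stress regulators came with a peak each, Keap1 (signal 522), the Cullin adaptor that restrains CncC, cnc itself (345), and maf-S (121), the partner of CncC. Their summits were 803, 323 and 684 bp from the start site. Pomp, the chaperone of core particle assembly, had 428, a higher signal than any subunit gene. The proteasome-bound deubiquitinases Uch-L5 (180) and Usp14 (94.8), the regulators REG (63.2) and PI31 (79.3), and the F-box gene ntc (203) were also among them. So were the ubiquitin-activating enzyme gene Uba1 (133), the ubiquitin genes Ubi-p63E (128), RpL40 (144) and RpS27A (204), and the ligase gene Ube3a (146). TER94 (172), which extracts ubiquitinated proteins, and its cofactors Ufd1 (234), Npl4 (96.1), p47 (102) and Plap (272) each had one. The relatives of the lid CSN5 (188), CSN1b (76.2) and eIF3m (140) completed the 22. No thresholded series-level promoter peak was found at Sem1, Rad23, Ubqn, rngo, Ubi-p5E, PSMG1 and Uch-L5R. Of these, Sem1, a small lid subunit with a symbol outside the rule, had a peak of 52.4 in replicate 1.

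Set beside other multi-subunit complexes, the core proteasome genes had a share of 65.6% and all 48 members, paralogues included, one of 43.8%, with a median signal of 116. Of 93 cytosolic ribosomal protein genes 71 (76.3%) had a series-level promoter peak, with a median signal of 231, and 74.7% ± 5.32 (SD, n = 2) had one in the replicates. Of 33 vacuolar ATPase genes 14 (42.4%) had one, with a median signal of 319, and 37.9% ± 2.14 in the replicates. Both families were taken whole, so 43.8% is the like share for the proteasome. RpL40 and RpS27A are also in the list of pathway genes, and no test of these differences was made. Between the replicates the core proteasome share went from 71.9% to 37.5%, where the ribosomal share moved from 78.5% to 71.0%.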

How the data were processed

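ChIP-seq peak lists of 2 biological replicates were analysed. Per the labels' protocols chromatin was sonicated, and the files name assembly dm6. Which aligner and caller made the lists is not given in the sources used here. Each deposited signal value is the peak caller's value, not stated to be scaled for depth. The deposited score column derives from the irreproducible discovery rate (IDR) and is at least 830 in thresholded lists. The deposited −log10 q and −log10 IDR columns were read but rank no result. Gene models were Ensembl release 115 and sequence the RefSeq copy of the same build (all 48 members' coding starts read ATG, and no peak passed an arm's end). The summit was column 2 plus column 10 of each list. Matching was done with Python 3.11.15 and pandas 2.3.3 and tested on simulated data. Without groups to compare, no test was run. The precision of a peak count is given by the replicates alone.

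The members, lists and motifs were chosen with earlier results of these data known. The rule for named genes was to account for every member and to give full values for the 10 with the strongest peak. The other pathway genes were matched by symbol or synonym, 29 of 30 entries. Distance, peak set, score, left-out replicates, gene assignment and motif window were varied as alternatives. Promoter windows were read from the genome.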

Additional observations from a re-analysis of the deposited data

How the results depend on the processing

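Of 72 recomputed values, 21 moved, by more than 1.5 times for a count or more than the SD of the replicates for other values, and 51 did not. These limits are wide for small counts and let the pathway count of 22 range from 15 to 23. No paralogue had a promoter peak under any of the 10 alternatives tried for it. The shorter distance, the maximum score only, the nearest gene only and the outermost start site can only remove peaks. Starting from none, these settings could not have changed the result and give no support to it. Within 2 kb the absence held narrowly, since the nearest thresholded summit to Prosbeta2R2 was 2083 bp away. The count of members with a promoter peak, which equals that of core genes, ran from 12 without replicate 1 to 23 without replicate 2 (20 of the 21 genes shared) and was 13 with the nearest gene only. The share of all coding genes was 43.2% within 2 kb and 27.5% with the nearest gene only, and it was 26.7% and 34.1% with a replicate left out. The median signal was 183 in the conservative set, and 69.3 to 88.6 with a replicate left out, where the scale also differs. The median distance was 61.0 bp in the conservative set and 61.0 to 65.5 bp with a replicate left out. TATCGATA was at 1 member summit within 25 bp, 7 within 100 bp and 7 in whole peaks, and at 2 to 6 with a replicate left out. The C/EBP consensus was at 0, 4 and 4, and at 1 to 3. For these motif settings no share over all promoter summits was computed. Depth is unknown and limits all counts. No paired analysis was possible because there is only 1 group.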

Other observations

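Some genes were listed differently by the replicate and series-level lists, given here as values. Prosalpha5 had a peak of signal 54.8 and score 1000 in replicate 1, while its strongest ranked peak at series level had a signal of 59.1 and a score of 78. Both summits lay 35 bp upstream of the start site. In replicate 2 its strongest ranked peak was a different one, 815 bp upstream, with a signal of 20.3 and a score of 53. Rpn9 had 54.3 with a score of 1000 in replicate 1 and 59.9 with a score of 322 at series level, 215 and 222 bp downstream of the start site. In replicate 2 it had 24.4 with a score of 91, at a different summit 404 bp upstream. Rpt6 had the same series-level signal of 59.9 as Rpn9 but a score of 904, with 33.9 and 25.4 in the replicates' ranked lists. Rpn12 was in the series-level list with a score of 933, although its strongest ranked peak in replicate 2 had a score of 49.

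For some core genes without a promoter peak the nearest thresholded summit is given here. The nearest summit to Prosbeta7 was 3506 bp away, with a signal of 475, 196 bp from the start site of Cerk. That nearest to Rpn9 was 6065 bp away with a signal of 461, and 1436 bp from its own nearest gene, CG10365. The nearest to Prosalpha1 was 2309 bp away, with a signal of 74.9, and the same peak was the nearest to its paralogue Prosalpha1R, at 5402 bp.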
